A study of Mus musculus with 24 samples.

Results

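AP-1 is a transcription factor made of a pair of subunits, one from the JUN family and one from the FOS family or a second JUN protein. The 7 genes that encode these subunits in the mouse are described here after depletion of MOF: Fos, Fosb, Fosl1 (encoding FRA-1) and Fosl2 (encoding FRA-2) of the FOS family, and Jun, Junb and Jund of the JUN family. They were taken by symbol from comparison tables that list 43626 genes for each fibroblast comparison. MOF, encoded by Kat8, acetylates histone H4 at lysine residues. Cells were mouse embryonic fibroblasts (MEFs) at passage 2, wild type or Mof knockout, and MPC5 podocytes, a mouse glomerular cell line, differentiated at passage 20 and carrying a scramble control or a Mof knockdown. Each of these 4 kinds of cells received vehicle (DMSO) or Adriamycin (doxorubicin, a DNA-damaging topoisomerase II poison) for 24 h, at 0.1 µg/ml in MEFs and 0.25 µg/ml in podocytes, which gave 8 groups of 3 samples. How the knockout and the knockdown were made, and whether the lines are clones, is not stated. RNA was sequenced after poly(A) selection.

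JUN proteins pair with each other or with FOS proteins through a leucine zipper, whereas FOS proteins need a JUN partner to bind DNA. Fos, Fosb, Jun and Junb are classic immediate early genes, switched on within minutes by growth factors and stress through MAP kinases, and Jund is more evenly expressed. Fosl1 and Fosl2 are induced later, and their proteins lack the strong activation domain of FOS. In podocytes, Adriamycin is the standard agent for experimental nephropathy.

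The values come from 4 tables made by the authors, 1 for each kind of cell and drug condition, and none holds a value per sample, so that no spread between samples can be shown beyond the standard error (SE) of a fold change and the depth of a library is unknown. Mean counts are over all samples of a comparison, after the authors divided counts by size factors. Fold changes are given as log2 values, with positive values higher in Mof-depleted cells. That direction was read from Kat8, which was negative in each of the authors' deposited tables and stood at 25.7% to 42.3% of its control level, so Kat8 does not test the labels. All 10 fibroblast markers looked up had mean counts above 100 in both MEF tables, and the podocyte gene Nphs1 was listed at 0 in the MEF vehicle table and at 0.505 with Adriamycin. Of 11 podocyte markers, 5 had a row in the podocyte Adriamycin table (Synpo, Podxl, Cd2ap, Actn4 and Nes), a table that lists called genes only, so the other 6, Nphs1 among them, could not be checked there.

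The genes are short and most carry few exons. On GRCm38 (GENCODE M21), Jun spans chr4:95049034-95052222 and Jund chr8:70698949-70700616, each as 1 exon, and Junb spans chr8:84974484-84978718. Fos lies at chr12:85473890-85477273, Fosb at chr7:19302696-19310051, Fosl1 at chr19:5447547-5455946 and Fosl2 at chr5:32135801-32157842. Fosl2 is the longest at 22042 bases, close to the median of 21218 bases over tested genes, and the other 6 run from 1668 to 8400 bases. All 7 are protein coding. Exons of 4 members overlap exons of a gene on the opposite strand: Jund with Gm11175 over 877 bases, Fosl1 with Ccdc85b over 1163, Jun with Junos (listed as BC042782) over 232 and Junb with Prdx2 over 173. The sources used here do not say whether strand entered the counting or how reads in such an overlap were handled. Whether these reads were mixed between the genes or left uncounted is therefore unknown.

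Promoters of 4 members are shown, because these genes are controlled through short elements close to the start site. In podocytes given Adriamycin, Fos, Fosb and Junb fell and Jun rose. Fosl2 and Jund, which rose there, and Fosl1, which fell, are not shown. Whether the marked elements bear on these directions was not tested. Each runs from 120 bases before to 30 bases after the RefSeq start site (GRCm38.p6), and for these genes that site lies within 30 bases of the GENCODE one. Capitals mark TGACG (the core of the cAMP response element), TGACATCA (the AP-1 element variant of the Jun promoter) and TATAAA.
Fos, chr12:85473770-85473919, plus strand: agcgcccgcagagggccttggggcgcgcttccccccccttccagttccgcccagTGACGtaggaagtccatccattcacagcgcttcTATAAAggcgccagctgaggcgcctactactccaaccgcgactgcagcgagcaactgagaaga
Fosb, chr7:19310016-19310165, minus strand: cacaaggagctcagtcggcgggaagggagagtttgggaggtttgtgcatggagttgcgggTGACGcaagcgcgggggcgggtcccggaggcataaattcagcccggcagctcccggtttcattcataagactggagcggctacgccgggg
Junb, chr8:84978719-84978868, minus strand: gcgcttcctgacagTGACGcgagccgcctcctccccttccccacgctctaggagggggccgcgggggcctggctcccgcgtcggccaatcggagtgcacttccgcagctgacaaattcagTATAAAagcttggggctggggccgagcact
Jun, chr4:95052193-95052342, minus strand: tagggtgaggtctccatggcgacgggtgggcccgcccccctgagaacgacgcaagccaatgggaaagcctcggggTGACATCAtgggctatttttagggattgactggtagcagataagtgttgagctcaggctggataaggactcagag

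TGACG was found 66 bases before the start of Fos (and again at 129, outside the stretch shown), 60 before that of Fosb and 106 before that of Junb, each on the strand of the gene. The position in Junb is counted from the RefSeq start, 30 bases upstream of the GENCODE one. TATAAA began 33 bases before the start of Fos, and in Junb on the RefSeq start itself. The element TGACATCA lay 45 bases before the start of Jun. Searched on both strands of the 300-base windows around 32851 RefSeq starts (250 bases before to 50 after), TGACG was present in 20.8%, TGACATCA in 3.62% and TATAAA in 13.6%. TGACTCA, the consensus AP-1 element (with TGAGTCA, its other strand), was present in 5.20% of these windows, TGACGTCA in 1.79% and the CArG box, the element bound by SRF, in 1.63%. None of these last 3 was found in the windows of the 6 members matched by symbol (all but Fosl1). Bases more than 250 before a start were not searched, so these genes may hold such elements farther out. TGACG contains the first bases of TGACGTCA. The windows of Fosl2 and Jund are set on RefSeq starts 671 and 1210 bases from the GENCODE start. They may therefore miss the promoter at the GENCODE start, and they are not shown.

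Jund was the subunit that rose in 3 of the 4 comparisons, in MEFs with vehicle, in MEFs with Adriamycin and in podocytes with Adriamycin. In podocytes the pattern was mixed: under Adriamycin, Fosl2, Jund and Jun were higher and Fosl1, Junb, Fosb and Fos were lower after Mof knockdown, and with vehicle Fosl1 fell to 33.4% of its control level. In MEFs only Jund passed an adjusted p of 0.05 with vehicle, and Jund, Fosl2 and Fos passed it with Adriamycin. So 1 of 7 members was called in MEFs with vehicle, where 37.5% of 15605 tested genes were called (17.8% higher and 19.6% lower), and 3 of 7 in MEFs with Adriamycin, where 32.7% of 14139 were (16.6% higher, 16.1% lower). In podocytes 1 member was called with vehicle, against 14.3% of 13876 tested genes (8.70% higher, 5.64% lower), and 7 of 7 with Adriamycin, against 55.7% of 17184 (27.8% higher, 27.9% lower). The median log2 fold change of the 7 members was 0.05 in MEFs with vehicle, beside 0.01 over all tested genes, and 0.29 with Adriamycin, beside -0.02. In podocytes with Adriamycin the members' median was -0.29, beside -0.12 over the genes the table lists. Podocyte markers were called in the podocyte comparisons too: 2 of 11 rose with vehicle (Synpo and Podxl), and 4 rose and 1 fell with Adriamycin. These are 18.2% and 45.5% of the list, beside backgrounds of 14.3% and 55.7%. The summed implied level of the 5 listed with Adriamycin went from 25040 to 30979. Of 7 leukocyte markers, 1 was called higher in podocytes with vehicle (14.3%), and 1 higher and 1 lower with Adriamycin (28.6%). The part of these markers in the podocyte results was not tested.

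**Figure D1:**
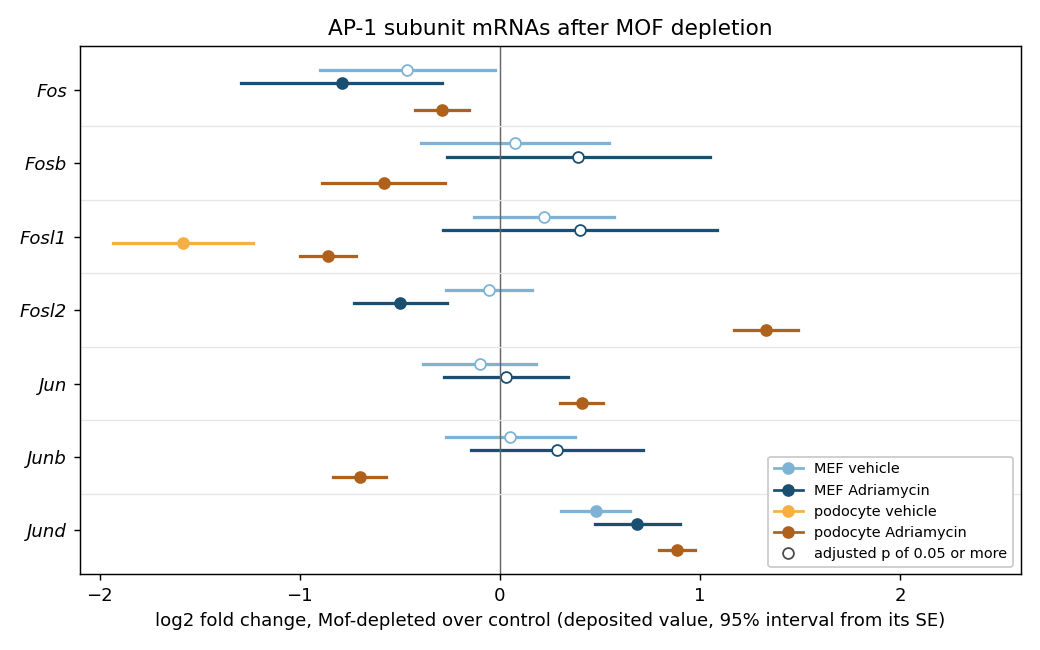
Log2 fold change (x axis) of each AP-1 subunit gene, Mof-depleted over control, in the 4 comparisons, with 95% intervals from the deposited standard errors; filled points have an adjusted p below 0.05. Jund lies to the right of 0 in the 3 comparisons where it has a row, and Fosl2 lies left of 0 in MEFs with Adriamycin (-0.50) and right of 0 in podocytes with Adriamycin (1.33).

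Jund encodes a JUN protein that is held in check by menin and is often linked to slower growth and to defence against oxidative stress. Its mean count in MEFs with vehicle was 1937 in the authors' deposited table, which with the fold change implies 1619 in wild type and 2254 in knockout cells. The log2 fold change of Jund was 0.48 ± 0.09 (SE, 1.39-fold, 95% interval 1.24 to 1.57), with an adjusted p of 6.66e-07 from DESeq2 in the authors' deposited table. With Adriamycin the mean count of Jund was 2826, the implied levels were 2166 and 3486, and the change was 0.69 ± 0.11 (1.61-fold, adjusted p 8.15e-09) in the authors' deposited table. In podocytes given Adriamycin, Jund was the most abundant member per length and rose by 0.88 ± 0.05 (1.85-fold, adjusted p 4.78e-84) from an implied 4174 to 7708, again from the authors' deposited table. The antisense gene Gm11175 that overlaps Jund had mean counts of 6.01 and 8.20 in the MEF tables and no row in the podocyte tables. In the MEF vehicle comparison 3 of 7 leukocyte markers rose (Emr1, Cd68 and Lyz2), or 42.9%, beside 37.5% of all tested genes. Ptprc, Aif1, Csf1r (-0.12) and Itgam (0.04) were not called. None was at 0, and the summed implied level of the 7 was 1920 in wild type and 3787 in knockout cells. With Adriamycin none of 6 tested was called, beside 32.7% of all tested genes, at sums of 3585 and 4843. The part of these markers in the Jund values was not tested. In bulk RNA of this kind, fewer cells of a type and less RNA per cell cannot be told apart.

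Jun, the founding member and the main target of the JUN N-terminal kinases, did not pass the test in MEFs. Its mean count was 3561 with vehicle and 3769 with Adriamycin, and its log2 fold changes were -0.10 ± 0.15 (adjusted p 0.629) and 0.03 ± 0.16 (0.904) in the authors' deposited tables. The 95% intervals allow Jun a fold change from 0.765 to 1.13 with vehicle and from 0.824 to 1.27 with Adriamycin. In podocytes with Adriamycin, Jun rose by 0.41 ± 0.06 (1.33-fold, adjusted p 6.95e-13 from DESeq2) at a mean count of 1803 in the authors' deposited table, from an implied 1549 to 2056.

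Junb, a JUN protein known to restrain the activity of JUN and the cell cycle, moved the other way in podocytes. With Adriamycin it fell by 0.70 on the log2 scale (-0.70 ± 0.07, to 61.5% of control, adjusted p 3.56e-25) in the authors' deposited table, at a mean count of 3071 and implied levels of 3804 in scramble and 2339 in knockdown cells. In MEFs the log2 fold change of Junb was 0.05 ± 0.16 with vehicle (adjusted p 0.837) and 0.29 ± 0.22 with Adriamycin (0.332) in the authors' deposited tables. Those intervals run from 0.829 to 1.30 and from 0.905 to 1.64 as folds. Prdx2, the peroxiredoxin gene on the opposite strand at the Junb locus, was at -0.93 ± 0.06 in podocytes with Adriamycin, and in MEFs at 0.57 ± 0.11 (vehicle) and 0.40 ± 0.08 (Adriamycin), as the authors' deposited tables give it. Its part in the Junb values was not tested.

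Fosl1 encodes FRA-1, a FOS protein associated with invasive and mesenchymal states. It was the 1 member with a row in the podocyte vehicle table, where it fell by 1.58 on the log2 scale (-1.58 ± 0.18, adjusted p 4.07e-16) at a mean count of 268 in the authors' deposited table. The implied Fosl1 level went from 402 in scramble to 134 in knockdown cells. This was the ninth largest decrease of the 783 genes called lower there. With Adriamycin the Fosl1 change in podocytes was -0.86 ± 0.07 (55.2% of control, adjusted p 1.99e-32) at a mean count of 2229 in the authors' deposited table, with implied levels of 2873 and 1586. In MEFs Fosl1 was not called: it stood at 0.22 ± 0.18 (adjusted p 0.361, mean count 1256) with vehicle and at 0.40 ± 0.35 (0.403, mean count 1640) under Adriamycin in the authors' deposited tables. The MEF interval with Adriamycin is wide, from 0.821-fold to 2.12-fold. Ccdc85b, on the opposite strand, was at -0.28 ± 0.12 (adjusted p 0.0360, mean count 272) in podocytes with Adriamycin in the authors' deposited table. Its part in the Fosl1 values was not tested.

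Fosl2 encodes FRA-2, the other FOS protein without a strong activation domain. In MEFs it had the highest mean count of the 7, 4759 with vehicle and 6371 with Adriamycin. With vehicle its log2 fold change was -0.05 ± 0.11 (adjusted p 0.744, interval 0.830-fold to 1.12-fold) in the authors' deposited table. With Adriamycin Fosl2 fell in MEFs (-0.50 ± 0.12, 70.8% of control, adjusted p 2.54e-04 from DESeq2) in the authors' deposited table, from an implied 7460 in wild type to 5282 in knockout cells. In podocytes with Adriamycin it rose instead, by 1.33 ± 0.08 (2.51-fold, adjusted p 1.79e-58) in the authors' deposited table, from an implied 733 to 1840. That was the largest change of the 7 in that comparison in either direction.

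Fos, the prototype immediate early gene, was lower in both comparisons in which it was called. In MEFs its mean count was 150 with vehicle and its log2 fold change -0.46 ± 0.22 (adjusted p 0.0912, unadjusted p 0.0389) in the authors' deposited table. With Adriamycin Fos fell to 57.8% of control in MEFs (-0.79 ± 0.26, adjusted p 0.00934) at a mean count of 531 in the authors' deposited table, with implied levels of 673 in wild type and 389 in knockout cells. In podocytes with Adriamycin it was at 81.8% of control (-0.29 ± 0.07, adjusted p 8.16e-05, mean count 1064) in the authors' deposited table, and only 14.4% of the genes listed there had a smaller change. Fosb, whose shorter splice form is known for building up under chronic stimulation, had mean counts of 142 to 153 in the 3 tables that list it. It was called in podocytes with Adriamycin (-0.58 ± 0.16, 66.8% of control, adjusted p 5.43e-04 in the authors' deposited table), from an implied 183 to 122.5. In MEFs Fosb was at 0.08 ± 0.24 (adjusted p 0.840) with vehicle and 0.39 ± 0.33 (0.390) under Adriamycin in the authors' deposited tables, and the second interval reaches from 0.833-fold to 2.07-fold.

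The other 6 members have no row in the podocyte vehicle table. A gene tested there and left out had an adjusted p of 0.05 or more, and the smallest absolute Wald statistic (the fold change over its SE) among the genes listed was 2.69. No value can be given for them, and whether their response differs from that of Fosl1 was not tested.

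Levels can be set beside each other only per length, so the implied counts were divided by the kilobases of merged exons. Merged exons join all annotated transcripts of a gene, for Fosb 6243 of its 7356 bases over 7 transcripts. A length can thus exceed that of the transcript present, which lowers the level per kb. In wild-type MEFs with vehicle, Jun was highest (1156 per kb), followed by Jund (971), Junb (746), Fosl1 (571), Fosl2 (501), Fos (73.7) and Fosb (22.2). In knockout MEFs with vehicle Jund came first (1351 per kb) and Jun second (1077), and the order of the other 5 was that of wild type. In podocytes with Adriamycin, Jund led in scramble (2503 per kb) and knockdown cells (4621 per kb), while Fosl2 rose from 75.7 to 190 per kb and stayed sixth of 7. Of the summed level of the 7 genes per kb, the JUN family held 69.7% in scramble and 81.8% in knockdown podocytes with Adriamycin, with Jund alone at 37.6% and 60.2%. In MEFs the JUN share was 71.1% in wild type and 72.3% in knockout cells with vehicle, and 65.6% and 72.6% with Adriamycin. No error can be put on these levels, so neighbours in the order, such as Fosl1 and Fosl2 in MEFs, are not shown to differ. The lengths also include exon bases shared with a gene on the opposite strand, 877 of 1668 for Jund and 1163 of 2033 for Fosl1. How reads there were counted is unknown, which limits the order and the shares.

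**Figure D2:**
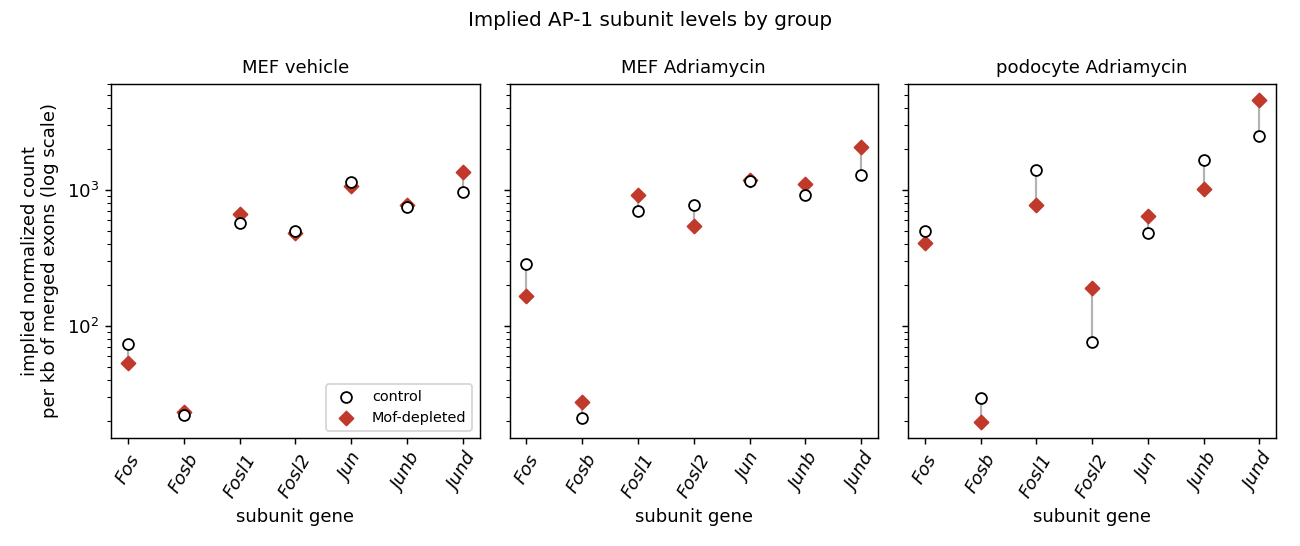
Implied normalized count per kilobase of merged exons (y axis, log scale) of each subunit gene in control (open circles) and Mof-depleted cells (red diamonds), for the 3 comparisons in which all 7 members have a row. Fosb is lowest in each panel, and in podocytes with Adriamycin the implied level of Jund goes from 2503 to 4621 per kb while Fosl1 and Junb go down.

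Fos in MEFs and Fosl1 in podocytes stood far apart between the tables of the 2 drug conditions. The implied level of Fos in wild-type MEFs was 173 with vehicle and 673 with Adriamycin (3.88 times), and in knockout MEFs 126 and 389 (3.09 times). The mean count of Fos rose more between the MEF tables than that of 96.5% of the 13973 genes in both, whose median ratio was 1.12. Fosl1 in podocytes went from 402 to 2873 in scramble (7.15 times) and from 134 to 1586 in knockdown cells (11.8 times), at a median ratio of 0.825 over the 1518 genes listed in both podocyte tables. For the other 6 members in MEFs the implied wild-type ratio ran from 0.949 (Fosb) to 1.54 (Fosl2). The authors normalized the tables separately, so these ratios are a description and were not tested.

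Whether Adriamycin changed the effect of MOF depletion was tested by the difference of the fold changes of the deposited tables, Adriamycin minus vehicle, over its SE (z test, Benjamini-Hochberg over all genes compared). In MEFs none of the 7 members was called by this z test, 1 (Fosl2) had an unadjusted p under 0.05, and 7.09% of 13973 genes were called. For Fosl2 the difference was -0.44 ± 0.16 (95% interval -0.76 to -0.13, p 0.00581, adjusted p 0.0691). For Jund it was 0.21 ± 0.14 (-0.06 to 0.48, adjusted p 0.426) and for Fos -0.33 ± 0.34 (-0.996 to 0.34, adjusted p 0.665). The intervals of Jun (-0.29 to 0.55), Junb (-0.30 to 0.77), Fosl1 (-0.59 to 0.95) and Fosb (-0.49 to 1.12) also include 0 and do not show equal effects. In podocytes the test could be made for Fosl1 alone, where the decrease was smaller with Adriamycin by 0.73 ± 0.19 (0.35 to 1.10, adjusted p 3.04e-04). That test covers the 1518 genes called in both podocyte tables, of which 63.4% were called.

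The fold changes were also compared between the cell types, in a comparison added after the values were seen. With Adriamycin, 5 of 7 members were called, a smaller share than the 79.3% of all 8842 genes compared, so a difference is not particular to the members. There the fold change in podocytes less that in MEFs was 1.83 ± 0.14 for Fosl2 (adjusted p 1.48e-35), -1.26 ± 0.36 for Fosl1 (7.18e-04), -0.99 ± 0.23 for Junb (3.44e-05), -0.97 ± 0.37 for Fosb (0.0119) and 0.38 ± 0.17 for Jun (0.0313), by the z test with Benjamini-Hochberg adjustment. Fosl2 was called lower in MEFs and higher in podocytes. For Jund (0.20 ± 0.12, interval -0.03 to 0.43, adjusted p 0.107) and Fos (0.50 ± 0.27, -0.02 to 1.02, 0.0724) no difference was called. With vehicle, Fosl1 differed by -1.80 ± 0.25 (adjusted p 1.66e-11). The background is high, since the podocyte tables list called genes only: with vehicle, 55.9% of 1897 genes were called. Cell type, knockout against knockdown, and drug dose cannot be told apart here.

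**Figure D3:**
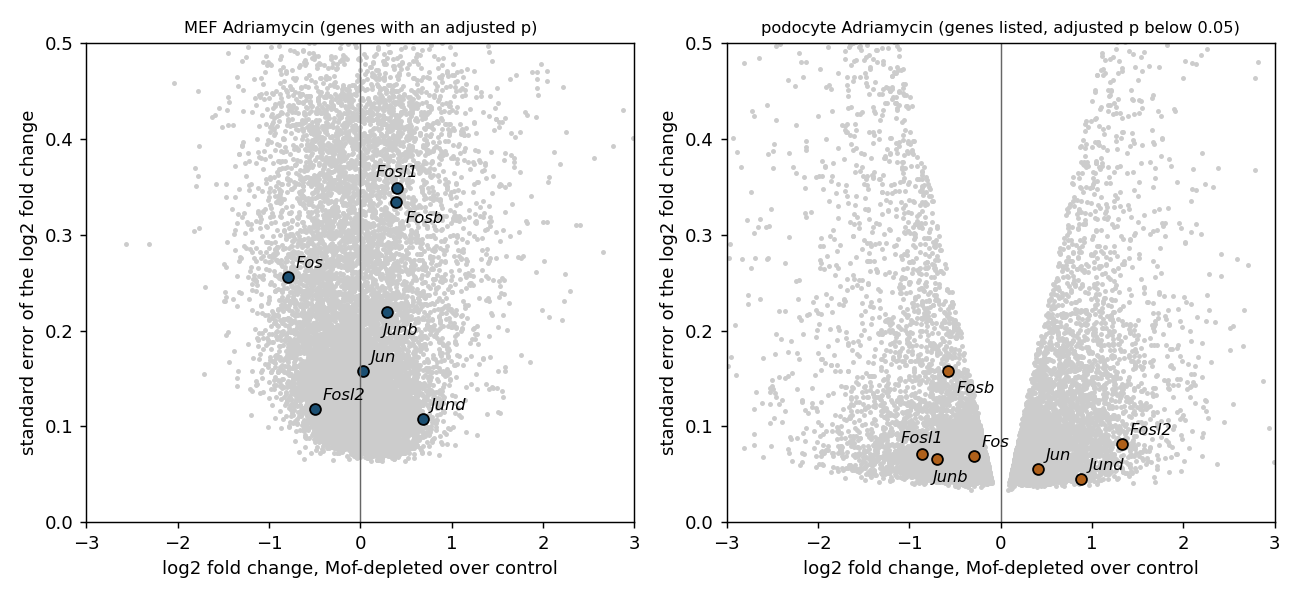
Log2 fold change (x axis) against its standard error (y axis) for the genes of the Adriamycin tables of MEFs (left) and podocytes (right), with AP-1 subunits marked; genes beyond 3 on the x axis or above 0.5 on the y axis are not drawn. The podocyte panel is empty near 0 because that table holds called genes alone, and there Fosl2 (1.33 ± 0.08) and Jund (0.88 ± 0.05) lie on the right.

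Among genes with a row in the same tables, those whose fold changes lay closest to a member's were ranked by the root mean square difference of the log2 fold changes. Fosl1 could be compared over all 4 comparisons with 1436 genes. Its nearest were Prdx6 (0.22), Fbln2 (0.29), Pon2 (0.31), Ippk (0.33) and Etv4 (0.34), the last an ETS transcription factor. The other members were compared over 3 comparisons with 8782 genes. Nearest to Fos were Hrsp12, Fbxo44, Zfp932, Gpalpp1 and Nr4a1 (0.09), itself an immediate early nuclear receptor. For Fosl2 they were Slc35d2 (0.06), Herc6, Gnpda2, Arhgap5 and Pou6f1 (0.08), and for Jund Myo5b (0.07), Fdft1, Fam129a, Tmem51 and Mrpl17 (0.13). For Jun (Armc5, B3galt6, Pqbp1, Lta4h, Ciapin1), Junb (D17Wsu92e, Imp3, Gm8566, Vash2, Cd14) and Fosb (Mprip, Pitpnm2, Agpat6, Rplp0, Zfp598) the nearest lay between 0.02 and 0.05. With so few comparisons many genes lie this close, and the ranking is a description.

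The other bZIP proteins that can pair with AP-1 subunits rose in MEFs where they were called. Of 14, 10 were tested with vehicle and 6 were higher and none lower, with a median of 0.47, and with Adriamycin 4 of 9 were higher and none lower (median 0.36). These are 60% and 44.4% of those tested, beside backgrounds of 37.5% and 32.7%. Atf3, a stress-induced partner of JUN, rose by 1.54 ± 0.23 and 1.30 ± 0.17 in the 2 drug conditions (vehicle, then Adriamycin) of the authors' deposited tables. In podocytes Atf3 rose with vehicle (0.41 ± 0.11) and Mafk fell (-0.44 ± 0.12) in the authors' deposited table. With Adriamycin the podocyte table called 2 higher, Atf2 (0.52 ± 0.06) and Creb5 (1.16 ± 0.16), and 4 lower, among them Mafg (-0.70 ± 0.05), all in the authors' deposited table. The shares of the list called in podocytes were 14.3% with vehicle, beside a background of 14.3%, and 42.9% with Adriamycin, beside 55.7%. In podocytes, here and for the other lists, the share is of all genes of a list, tested or not. The background is of tested genes only, so these shares are not strictly alike, and an untested gene lowers that of its list.

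Upstream of the subunits, the MAP kinase cascades showed called members in both directions. In MEFs 5 of 29 tested members were higher and 5 lower with vehicle, and 7 and 3 of 30 with Adriamycin, or 34.5% and 33.3% of those tested, near the 37.5% and 32.7% of all tested genes. Mapk3 (ERK1) was at -0.41 ± 0.09 with vehicle and Braf at -0.71 ± 0.13 under Adriamycin in the authors' deposited tables. In podocytes 3 of 30 were higher and 3 lower with vehicle, and 14 and 9 with Adriamycin. These are 20% and 76.7% of the list, beside 14.3% and 55.7% of all tested genes, the shares that stand behind each podocyte count of a list. With Adriamycin the JUN N-terminal kinases split: Mapk8 (JNK1) was at 0.95 ± 0.06 and Mapk9 (JNK2) at -1.30 ± 0.05 in the authors' deposited table. The MAP kinase phosphatases, which switch these kinases off, had 2 of 10 higher and none lower in MEFs with vehicle (20%, below the background of 37.5%) and 5 higher and 1 lower with Adriamycin (60%, above the background of 32.7%), led by Dusp9 (1.10 ± 0.20) in the authors' deposited table. In podocytes 4 of 10 were lower and none higher with vehicle, including Dusp2 (-1.63 ± 0.26) and Dusp5 (-0.89 ± 0.14), and with Adriamycin 3 were higher and 4 lower, Dusp1 at 1.08 ± 0.06 and Dusp2 at -2.52 ± 0.14, in the authors' deposited tables. In podocytes 40% of the phosphatases were called with vehicle and 70% with Adriamycin, beside 14.3% and 55.7%. Of 14 factors that act on the Fos and Jun promoters, 3 were higher and 1 lower in MEFs with vehicle, none higher and 3 lower with Adriamycin, 2 and 1 in podocytes with vehicle, and 3 and 5 with Adriamycin. The shares called in MEFs, 28.6% and 21.4%, were below the backgrounds of 37.5% and 32.7%, and those in podocytes were 21.4% and 57.1%, beside 14.3% and 55.7%. Srf, the factor of the serum response element, was at -0.36 ± 0.10 in MEFs with vehicle and -0.29 ± 0.06 in podocytes under Adriamycin in the authors' deposited tables.

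Proteins that bind, modify or degrade AP-1 subunits had 3 of 15 genes higher and 4 lower in MEFs with vehicle, 3 and 3 with Adriamycin, no row in podocytes with vehicle, and 8 and 4 with Adriamycin. The shares called were 46.7% and 40% in MEFs, beside 37.5% and 32.7% of all tested genes, and 80% in podocytes with Adriamycin, beside 55.7%. Men1 encodes menin, the JUND-binding repressor. It was lower in MEFs, by -0.57 ± 0.09 with vehicle and -0.45 ± 0.13 with Adriamycin, and higher in podocytes with Adriamycin (0.92 ± 0.06), in the authors' deposited tables. Jund was higher in all 3 of these comparisons, and the part of Men1 in the Jund values was not tested.

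Other immediate early genes did not share 1 direction. In MEFs 5 of 25 were higher and 4 lower with vehicle, and 1 of 24 tested was higher and 2 lower with Adriamycin. The first share, 36%, is near the background of 37.5%, and the second, 12.5%, is below that of 32.7%. In podocytes with vehicle 3 were higher and 7 lower, and with Adriamycin 13 were higher and 5 lower, a median of 0.65 over the 18 with a row beside -0.12 over all genes listed. These are 40% and 72% of the list, beside 14.3% and 55.7% of all tested genes. Cyr61 and Ctgf, matricellular genes of the serum response, fell with vehicle (-0.82 ± 0.17 and -0.85 ± 0.11) in the authors' deposited table. With Adriamycin both rose, Cyr61 by 1.68 ± 0.05 and Ctgf by 2.54 ± 0.21, in the authors' deposited table. Klf6 also rose there, by 1.33 ± 0.06, while Zfp36 (-0.71 ± 0.09) and Nr4a2 (-1.48 ± 0.24) fell.

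Genes known as targets of AP-1 were called higher more often than lower in MEFs, 11 against 2 of 34 tested with vehicle and 13 against 2 of 34 with Adriamycin, with a median of 0.17 in both. The shares called, 38.2% and 44.1%, stand beside backgrounds of 37.5% and 32.7%. The collagenase gene Mmp13 (3.09 ± 0.21 and 2.21 ± 0.21) and the stromelysin gene Mmp3 (2.98 ± 0.20 and 2.66 ± 0.28) led, and Dnmt1 (-0.76 ± 0.08 and -0.55 ± 0.10) fell in both, in the authors' deposited tables. In podocytes 4 of 37 were higher and 7 lower with vehicle and 14 higher and 8 lower with Adriamycin, or 29.7% and 59.5% of the list beside backgrounds of 14.3% and 55.7%. The urokinase receptor gene Plaur rose by 1.63 ± 0.08 with Adriamycin, ezrin (Ezr) by 1.28 ± 0.05, and Vegfa (-1.27 ± 0.05) and Hmga1 (-2.60 ± 0.17) fell, in the authors' deposited table. Bcl2l11 and Cdkn2a rose, and Cd44 fell, in podocytes with vehicle.

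**Figure D4:**
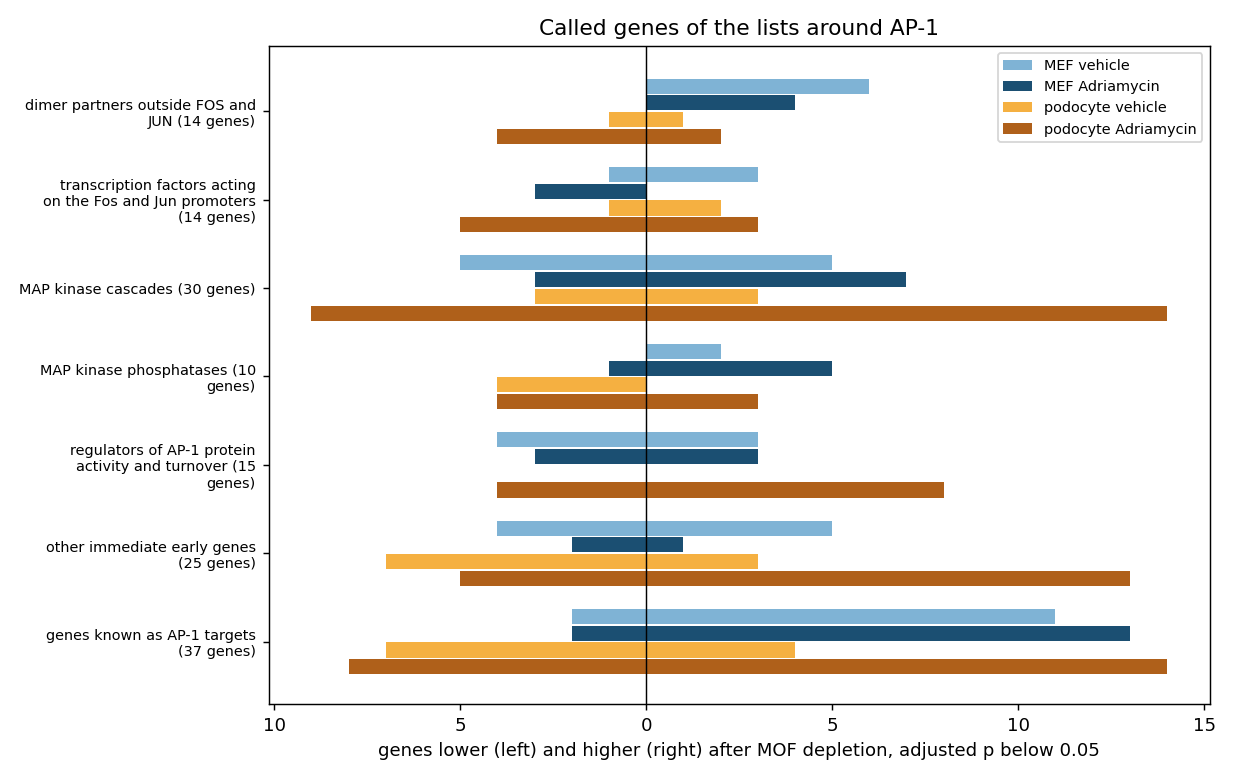
Number of genes called lower (left of 0) and higher (right of 0) after MOF depletion at an adjusted p below 0.05, for the 7 gene lists around AP-1 and the 4 comparisons; list sizes are given beside the names. In MEFs the dimer partners have bars to the right and none to the left (6 and 4 genes), and other immediate early genes have 13 higher and 5 lower in podocytes with Adriamycin.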

How the data were processed

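RNA-seq was compared in 8 groups of 3 samples (24 in all). The labels do not say whether the 3 are separate cultures, so the p-values cover the spread between samples only, and that spread may be technical. The submitters' processing notes name DESeq2 1.4.1, featureCounts 1.4.5-p1, TopHat2 2.0.13 and the build GRCm38. The deposited signal is the mean normalized count over a table's samples, per the file headers. The deposited log2 fold change, its SE, the score (the Wald statistic), the p-value and the adjusted p come from the authors' DESeq2 fit across all genes, per the file headers. Whether fold changes were shrunken is not stated; in the MEF vehicle table no SE exceeded 0.710, even for genes with mean counts below 1, as shrinkage gives, so fold changes and implied levels may understate differences.

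A gene was called at an adjusted p below 0.05. The podocyte tables list called genes only; the number tested came from the ratio of adjusted p to p. Implied group levels solve the mean count m and log2 fold change f for groups of equal size: control 2m/(1 + 2 to the power f). Levels are printed as deposited and not scaled to the table sum as planned, because the podocyte tables hold only part of a library; in MEFs that scaling changed the log2 ratio of Fos between drug conditions from 1.957 to 1.958. Differences of fold changes were z-tested (scipy 1.17.1, checked on simulated data) over all genes in both tables. Exon lengths are GENCODE M21, promoters RefSeq; symbols matched for 6 of 7 members. Members and gene lists were chosen with earlier results of these data known. Named genes were all members, Kat8, for each list and table up to 2 genes in each direction by smallest adjusted p, and the 5 genes nearest each member; not all of these are reported. Alternatives were a threshold of 0.01, Bonferroni, a minimum mean count of 50, no filter on low counts, centring and unscaled levels.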

Additional observations from a re-analysis of the deposited data

Results flagged for a closer look

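Effects of MOF depletion on some subunits differed between conditions or cell types by the z test. In podocytes the Fosl1 decrease was smaller under Adriamycin than under vehicle, a difference of 0.73. Between cell types, podocyte minus MEF, Fosl1 differed by -1.80 with vehicle. With Adriamycin the differences were 1.83 for Fosl2, -1.26 for Fosl1, -0.99 for Junb, -0.97 for Fosb and 0.38 for Jun. Podocyte values entered these tests only for genes already called there.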

How the results depend on the processing

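The thresholds, Bonferroni adjustment and count filters leave the fold changes as they are, so they could change calls but not directions. Only centring on the median of the listed or compared genes, and unscaled levels, could change a direction. Under these the direction of each member's value was the same. In the 2 podocyte tables the minimum mean count left the members' adjusted p unchanged as well. Those tables list called genes only, so the number of tested genes above that count is unknown. There the filter is therefore no check of the calls. Bonferroni adjustment left 1 of 3 calls in MEFs with Adriamycin (Jund), 5 of 7 in podocytes with Adriamycin (without Fos and Fosb), 0 of 1 for the drug difference of Fosl1 in podocytes (Bonferroni p 0.227) and 1 of 5 for the difference of cell types with Adriamycin (Fosl2). At an adjusted p below 0.01, 3 of those 5 were left (Fosl1, Fosl2 and Junb). Centring took the cell type difference of Jun from 0.38 to 0.34, where it was no longer called (adjusted p 0.0566). In all, 4 counts under these alternatives moved by over 1.5 times and 30 did not, the 5 of 7 in podocytes and the count without Jun among the latter. No paired analysis was possible because the deposited tables hold no value per sample; for the same reason no sample could be left out in turn. Depth per library is unknown, and the wide MEF intervals of Fosb and Fosl1 limit what could be called.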
